A study of Mus musculus with 9 samples.

Results

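The replication-dependent histone genes encode the histones that are made in bulk while DNA is copied. They were taken as every gene whose symbol begins with Hist1h, Hist2h, Hist3h or Hist4h, which gave 70 of the 55401 genes in the tables. These were 6 genes of the linker histone H1, 20 of H2A, 19 of H2B, 12 of H3 and 13 of H4. On GRCm38.p6, 56 members lay on chromosome 13, of which 55 formed the Hist1 cluster in 3 blocks, chr13:21715763-21837530 with 19 members, chr13:22035164-22043676 with 5 and chr13:23531050-23934851 with 31. The remaining chromosome 13 gene, Hist1h2al, lay apart at chr13:51202727-51203065. The Hist2 cluster held 10 members on chromosome 3, Hist3 held 3 on chromosome 11, and Hist4h4 was alone on chromosome 6.

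In a dividing cell, DNA synthesis and the supply of core histones (H2A, H2B, H3 and H4) and linker histone H1 are coupled, and most of these mRNAs are present in S phase only. Their mRNAs end in a conserved stem-loop in place of a poly(A) tail. The stem-loop is bound by SLBP, the 3′ end is cut with the help of U7 snRNP, and the mRNA is degraded when replication stops. NPAT, a substrate of cyclin E and CDK2, drives transcription of the clusters from the histone locus body. Such mRNAs are largely lost when libraries are made from poly(A)+ RNA, whereas the libraries used here were made from total RNA.

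RNA-Seq was examined in 9 libraries of an AML mouse model, 3 per group. The H9M cells were lineage-negative bone marrow cells of C57BL/6-Ly5.1 mice carrying a gammaretroviral Meis1-2A-Hoxa9 vector. They also carried a color-coding vector, and the clones were derived from single cells and given to lethally irradiated C57Bl6/J recipients. Splenocytes were sorted by color code within a CD45.1+EGFRtbright cKit+CD11bdim/neg gate. All pre-malignant libraries came from 1 mouse without leukemia, #15, and each was another clone. In the de novo expanded group these clones came from leukemic mice, 33BC-D from #17, 38BC-D from #13 and 43BC-D from #14. The same leukemic mice gave the stably expanded group, which was 34BC-D alone. Per the paper, #15 was taken early after transplantation and the leukemic mice at their endpoint. The pre-malignant group thus cannot be told apart from its mouse or from this earlier time, and the stably expanded group is 1 clone. Columns of the tables could be assigned to a group but not to a clone or mouse, so libraries are numbered within a group and the numbers pair nothing. P-values measure the spread between these libraries.

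Reads counted on genes numbered between 10379739 and 15551196 per library. The progenitor and sort genes were present throughout, with Kit at 142 to 287 and Itgam, which encodes CD11b, at 27.8 to 85.7 CPM (read counts scaled to 1000000 reads on genes per library), and Hoxa9 and Meis1 were at 315 to 687 and 535 to 1099 CPM. Markers of other cells were low, except those of macrophages. The summed level of 5 T cell markers was at most 2.81 CPM and that of 5 platelet markers at most 3.04 CPM, with Ppbp and Gp1bb at 0 in all 9 libraries. Of 5 erythroid markers the sum was 14.9 to 29.5 CPM in pre-malignant, 1.76 to 11.96 in de novo expanded and 2.02 to 20.7 in stably expanded libraries. The 5 B cell markers summed to 13.8 to 17.5 CPM in pre-malignant, 7.33 to 12.1 in de novo expanded and 10.96 to 19.1 in stably expanded libraries. All 5 were lower in de novo expanded and 4 of 5 in stably expanded libraries, where Pax5 (log2 fold change -3.04, limma adjusted p = 0.0141) and Ms4a1 (-2.29, adjusted p = 0.0284) were called and Cd79b had 0.99. The 5 macrophage markers summed to 158 to 317 CPM, with Adgre1 at 52.2 to 99.0 and Cd68 at 63.8 to 116 CPM. C1qa was at 0 in 4 libraries and C1qb in 2. Vcam1 was at 100, 12.4 and 13.6 CPM in pre-malignant and 1.17, 6.75 and 167 in de novo expanded libraries. In stably expanded libraries Vcam1 was at 141, 106 and 77.4 CPM. The part of other cells in the histone values was not tested. De novo expanded library 3 stood apart from the other 2 of its group. Its 9 progenitor and sort genes summed to 22527 CPM, against 4332 and 5984 in libraries 1 and 2. Elane, which encodes neutrophil elastase, was at 2148 CPM against 148 and 267. The sum was 10134 to 10951 CPM in pre-malignant and 12716 to 14853 in stably expanded libraries. Elane was there at 803 to 833 and 1232 to 1736 CPM. Libraries 1 and 2 were thus below both other groups, and library 3 was above them. Mpo, which is in this sum, ranged from 1637 to 15796 CPM over the 9 libraries. The medians and counts over the histone genes are therefore also given without library 3, and the part of these differences in the results was not tested.

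The stem-loop identifies the family at the sequence level, and it was looked for in the protein-coding transcripts of GENCODE vM1. Of the 67 members with a transcript there, 45 held a 16-base stem-loop, beginning 21 to 58 bases after the stop codon with a median of 31. Of the other 22 members, 16 had transcripts that ended within 40 bases of the stop codon. The stem-loops are printed here for 1 gene each of H1, H2A, H2B and H4 and for 2 H3 genes with variant loops, in capitals with 5 bases on either side, written as DNA.
Hist1h1c: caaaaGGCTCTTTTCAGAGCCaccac
Hist2h2ac: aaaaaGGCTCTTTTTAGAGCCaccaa
Hist1h2bj: ccaaaGGCTCTTTTCAGAGCCacgca
Hist1h3e: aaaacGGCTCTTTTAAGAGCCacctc
Hist1h3g: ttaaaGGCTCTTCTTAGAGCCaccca
Hist1h4d: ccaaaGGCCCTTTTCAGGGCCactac
Only 8 different stem-loops occurred. The form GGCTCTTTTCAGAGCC was shared by 28 members of H1, H2A, H2B and H3. All 11 H4 genes with a stem-loop had another form, and 6 of them had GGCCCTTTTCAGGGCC, which differs from the first form in its stem. Past the stem-loop, 17 members had more than 100 annotated bases, as in Hist1h1d with 3050. A length-based comparison of levels between genes is therefore affected by how far the annotation extends.

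The members resemble each other closely, which bears on how well single genes can be counted from reads of 38 bases. In the median member, 48.6% of all 38-base windows were also found in the transcript of another gene, and in 31 members more than 50% were. How reads with several matches were counted is not given in the sources used here. Sums over a histone type do not depend on how reads were split among its members, although they do depend on whether reads with several matches were kept. The values of single members depend on both.

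Histone genes took 0.601% to 1.17% of all reads on genes. In the pre-malignant libraries 1 to 3 they summed to 6009, 7202 and 7994 CPM. In the de novo expanded libraries the sums were 11683, 9784 and 6332 CPM, and in the stably expanded libraries 9248, 9956 and 6308 CPM. Libraries 1 and 2 of both leukemic groups were above every pre-malignant library, and library 3 of both fell within the pre-malignant range, so the groups overlapped. The means were 7068 ± 999 (SD, n = 3), 9267 ± 2713 and 8504 ± 1934 CPM. On the log2 scale the sum exceeded that of the pre-malignant group by 0.35 in the de novo expanded and by 0.25 in the stably expanded group. On normalized counts these differences were 0.37 and 0.25. The first fell to 0.19 when library 1 of the de novo expanded group was left out and rose to 0.61 when its library 3 was. The second was 0.14 without stably expanded library 2, 0.15 without pre-malignant library 1 and 0.44 without stably expanded library 3. In a bulk sample, more cells in S phase and more histone RNA per S phase cell cannot be told apart.

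**Figure D1:**
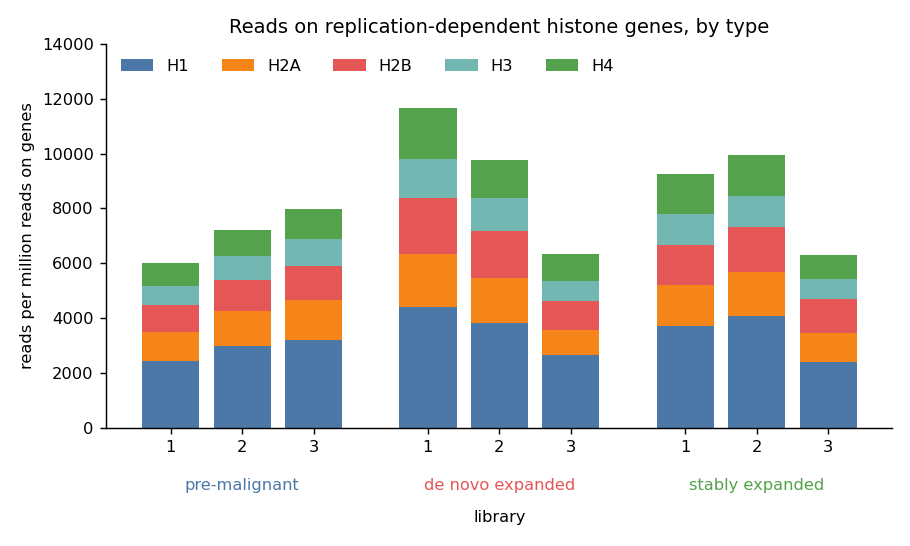
CPM (y axis, linear) summed over the histone genes of each type (colors) in each of the 9 libraries (x axis, 3 per group). The tallest bars are libraries 1 and 2 of the de novo expanded (11683 and 9784) and stably expanded (9248 and 9956) groups, while library 3 of each is as low as the pre-malignant libraries.

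The same split was seen gene by gene. Among the 65 members tested between de novo expanded and pre-malignant libraries, 61 were above every pre-malignant library in de novo expanded library 1, where 32.7% of all genes tested were, and 54 in library 2 (all genes 31.8%). In library 3, only 7 were above (all genes 36.3%) and 30 were below every pre-malignant library, against 30.4% of all genes. In the stably expanded group, 48 of 64 members in library 1 (all genes 34.6%) and 52 in library 2 (all genes 32.1%) were above every pre-malignant library, and in library 3 this was true of 12 (all genes 33.3%).

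Single members were tested with limma on log2(normalized count + 1) wherever the normalized count averaged 10 or more over the 6 libraries, with Benjamini-Hochberg adjustment. Calls required an adjusted p under 0.05 together with a difference of at least 2-fold. Of the 70 members, 65, 64 and 64 passed the filter in the comparisons of de novo expanded with pre-malignant, stably expanded with pre-malignant and stably with de novo expanded libraries. Hist2h2aa1 and Hist2h3c1 were listed with no read in any library. Another annotated gene on the same strand covers 529 of 586 exon bases of the former and all 1825 of the latter, so a count of 0 sets no limit on their levels. Hist1h2ap, Hist1h2bq and Hist1h2br were below the filter in every comparison.

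Between de novo expanded and pre-malignant libraries no member was called, and neither was any other of the 14195 genes tested (0%). With limma, 16 members and 11.3% of all genes had an unadjusted p under 0.05. DESeq2 called 62 genes, none of them a member, and edgeR called none. The log2 fold change was above 0 in 59 of 65 members, compared with 51% of all genes, with a median of 0.40 against 0.01 for all genes. By type, the median was 0.30 for H1, 0.33 for H2A, 0.47 for H2B, 0.40 for H3 and 0.46 for H4. There was no overlap between the groups for 5 members that were higher (10.6% of all genes tested), namely Hist1h1e, Hist1h3e, Hist1h3f, Hist1h4c and Hist1h4m, and for 1 that was lower (8.5%), Hist3h2a. Without de novo expanded library 3, 31 members had an adjusted p under 0.05, all of them higher (2.23% of all genes in that direction), 1 of which, Hist1h2bl, was at least 2-fold higher, and the median was 0.64. In that fit 61 of 65 members were above 0, and the medians were 0.51 for H1, 0.60 for H2A, 0.78 for H2B, 0.65 for H3 and 0.72 for H4. The log2 fold change was greater than with all libraries in 63 of 65 members and changed sign in 2, so the values of single members in this comparison also rest on this library. Leaving out de novo expanded library 1 instead gave a median of 0.17. Without pre-malignant library 1, the library with the least histone reads, no member passed and the median was 0.28.

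Between stably expanded and pre-malignant libraries 384 of 13968 genes were called (2.75%) and no member was among them. Without the fold limit, 4 members had an adjusted p under 0.05, all of them H2B genes and all higher in stably expanded libraries, against 4.34% of all genes in that direction. An unadjusted p under 0.05 was found for 17 members (25.4% of all genes). The median over 64 members was 0.26, with 56 above 0 (50.5% of all genes), and by type 0.21 for H1, 0.18 for H2A, 0.33 for H2B, 0.21 for H3 and 0.35 for H4. Groups did not overlap for 9 members that were higher, 7 of them H2B genes (16.1% of all genes), and for Hist3h2a, which was lower (14.6%). Without stably expanded library 3, 14 members passed upwards (3.93% of all genes) and Hist3h2a was called as lower, with a median of 0.44. Without pre-malignant library 1, none passed (2.22% of all genes upwards) and the median was 0.14. The median was 0.16 without stably expanded library 1, 0.17 without library 2 and 0.39 without pre-malignant library 3. Both comparisons share the pre-malignant libraries, so a low or high value there enters both.

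In the comparison of both leukemic groups 1 of 13758 genes was called (0.00727%), which was no member. No member had an unadjusted p under 0.05 by limma (4.83% of all genes), none was called by edgeR or DESeq2, and none was free of overlap between the groups, higher (4.66% of all genes) or lower (4.95%). The median was -0.10, and 16 of 64 members were above 0 (49.6% of all genes). This median ranged from -0.39 to 0.10 when single libraries were left out, so its sign depended on single libraries: it was 0.10 without de novo expanded library 1, 0.07 without stably expanded library 3 and -0.39 without de novo expanded library 3. Without that last library, 508 genes were called, against 1 with all libraries. Hist2h3c2 was the 1 member among the 508, at a log2 fold change of -3.04 (limma, adjusted p = 0.00798). This gene was low and scattered over the libraries, and 1 call among 508 is no result about the members as a set.

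**Figure D2:**
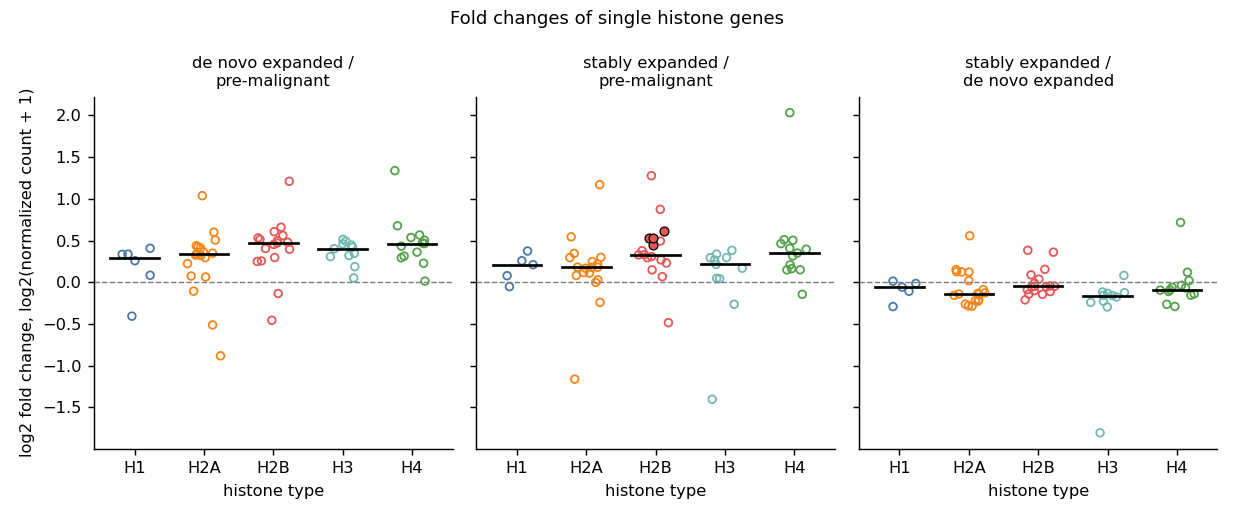
Log2 fold change on log2(normalized count + 1) (y axis) of each tested member, by histone type (x axis), in the 3 comparisons (panels), with the median per type as a black line and the median of all genes tested as a dashed line. Filled points are the 4 H2B genes with an adjusted p under 0.05, and in both left panels the median of every type lies above the dashed line.

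H1 genes had the most reads of any type, with 37.8% to 41.8% of histone reads in each library. In H1 genes 0% to 25.2% of windows were found in other genes, against 48.6% in the median member. The H1 share thus depends on how reads with several matches were counted. It also depends on annotated exon length, which is 7425 bases in Hist1h1d. Linker histones bind the DNA between nucleosomes and compact chromatin. H1 sums were 2429, 2973 and 3216 CPM in pre-malignant, 4411, 3825 and 2646 in de novo expanded and 3723, 4062 and 2393 in stably expanded libraries. Hist1h1c had the highest level per length of the H1 genes, with 704 CPM per kb of annotated exon over the 9 libraries, followed by Hist1h1a with 561 and Hist1h1b with 503. Hist1h1c alone took 13.3% of all histone reads. Its level was 824, 989 and 1044 CPM in pre-malignant, 1328, 1251 and 992 in de novo expanded and 1294, 1308 and 852 in stably expanded libraries. Library 3 of the leukemic groups again lay within the pre-malignant range. For Hist1h1c the log2 fold change was 0.33 (SE 0.14, limma adjusted p = 0.427) for the de novo expanded and 0.26 (SE 0.15, adjusted p = 0.325) for the stably expanded group.

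The other somatic H1 genes differed in how far they followed this pattern. Hist1h1e was at 505, 590 and 602 CPM in pre-malignant and at 813, 721 and 596 in de novo expanded libraries, and on normalized counts these groups did not overlap (log2 fold change 0.34, SE 0.13, adjusted p = 0.420). Its exons overlap those of Hist1h2be and Gm11398 on the same strand over 496 bases. Hist1h1d was at 541, 639 and 699 CPM in pre-malignant, 1007, 851 and 636 in de novo expanded and 941, 948 and 585 in stably expanded libraries. Hist1h1d had the largest log2 fold changes among H1 genes, 0.41 (SE 0.17, adjusted p = 0.440) and 0.37 (SE 0.17, adjusted p = 0.189). Hist1h1a was at 307, 399 and 457 CPM in pre-malignant, 639, 509 and 284 in de novo expanded and 385, 513 and 252 in stably expanded libraries, which makes its log2 fold change -0.05 in the latter. The testis gene Hist1h1t was below 1.5 CPM in every library.

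H2A sums were 1054, 1294 and 1438 CPM in pre-malignant, 1934, 1643 and 935 in de novo expanded and 1503, 1639 and 1058 in stably expanded libraries. H2A forms a dimer with H2B and is the site of the ubiquitin mark placed by PRC1. H2A made up 14.8% to 17.98% of histone reads, and its lowest share was in de novo expanded library 3. Hist1h2ak was the member with the highest level per length of all, 954 CPM per kb, followed among H2A genes by Hist1h2af with 353 and Hist2h2ac with 348. Hist1h2ak was at 290, 359 and 392 CPM in pre-malignant, 491, 429 and 219 in de novo expanded and 450, 465 and 280 in stably expanded libraries, and the log2 fold changes were 0.07 and 0.18. Hist2h2ab was at 16.5, 17.5 and 22.4 CPM in pre-malignant, 31.96, 20.9 and 23.2 in de novo expanded and 31.0, 21.7 and 29.6 in stably expanded libraries, and the last differed from pre-malignant by 0.54 on the log2 scale (SE 0.19, limma adjusted p = 0.102). Its exon lies opposite Gm15444 over 303 of 444 bases.

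A pair of H2A genes went their own way. Hist3h2a (chr11:58954685-58956830) was at 9.41, 11.8 and 12.4 CPM in pre-malignant, 6.18, 9.26 and 3.66 in de novo expanded and 3.07, 4.73 and 8.19 in stably expanded libraries. It was lower in all 6 leukemic libraries than in any pre-malignant library, the only tested member with this order. The log2 fold changes were -0.88 (SE 0.34, adjusted p = 0.422) and -1.16 (SE 0.33, adjusted p = 0.0576). DESeq2 called Hist3h2a as lower in stably expanded libraries (adjusted p = 0.0159), among 531 genes called there. Its transcript carries the stem-loop and then 1487 annotated bases, and 708 of its 2146 exon bases overlap Trim17 or Gm44313 on the same strand. Hist1h2aj was at 6.91, 6.98 and 8.17 CPM in pre-malignant libraries. It was at 58.7 CPM in de novo expanded library 1 and 42.4 in stably expanded library 2, and at 5.68 to 11.5 in the remaining leukemic libraries. Its mean is thus set by 1 library in each leukemic group, with log2 fold changes of 1.04 (SE 0.76) and 1.17 (SE 0.45, adjusted p = 0.131).

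H2B sums were 980, 1111 and 1261 CPM in pre-malignant, 2021, 1707 and 1031 in de novo expanded and 1455, 1640 and 1238 in stably expanded libraries. H2B completes the dimer with H2A and carries the ubiquitin mark of transcribed genes. Of 17 H2B genes tested, 15 had a log2 fold change above 0 against the pre-malignant group in the de novo expanded and 16 in the stably expanded comparison. The 4 members that passed the test in stably expanded libraries were Hist2h2bb, Hist1h2bn, Hist1h2bb and Hist1h2bj, and their values follow.

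Hist1h2bb (chr13:23746734-23747241) had the highest level per length of the H2B genes, 416 CPM per kb. It was at 135, 159 and 174 CPM in pre-malignant, 312, 281 and 163 in de novo expanded and 227, 267 and 184 in stably expanded libraries. All stably expanded libraries were above all pre-malignant libraries, with a log2 fold change of 0.53 (SE 0.13, limma adjusted p = 0.0363), and the log2 fold change of de novo expanded libraries was 0.66 (SE 0.23, adjusted p = 0.412). Hist2h2bb (chr3:96269752-96270132) was at 106, 111 and 134 CPM in pre-malignant, 229, 182 and 129 in de novo expanded and 168, 181 and 155 in stably expanded libraries. Its log2 fold changes were 0.61 (SE 0.20, adjusted p = 0.402) and 0.53 (SE 0.11, adjusted p = 0.0170). All 381 bases of its exon lie opposite another gene and 226 overlap one on the same strand, Gm20628 and Gm42743, so its reads and theirs may be mixed. Few windows of its transcript, 0.678%, are found in other genes.

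Hist1h2bn (chr13:21754123-21754503) was at 71.7, 94.8 and 91.3 CPM in pre-malignant, 189, 152 and 56.5 in de novo expanded and 127, 153 and 114 in stably expanded libraries. The log2 fold change in stably expanded libraries was 0.62 (SE 0.13, adjusted p = 0.0206), and 87.8% of its windows are found in other genes. Hist1h2bj (chr13:22043214-22043676) was at 48.0, 50.5 and 63.0 CPM in pre-malignant, 106, 76.3 and 52.6 in de novo expanded and 69.8, 78.4 and 70.3 in stably expanded libraries. Its log2 fold change was 0.45 (SE 0.12, adjusted p = 0.0495). These 4 genes were chosen by their difference in stably expanded libraries, which favors high values in each library of that group. This choice in part sets the following contrast. In the 4 genes library 3 of the stably expanded group stayed above the pre-malignant libraries, whereas library 3 of the de novo expanded group did not. Without that library, the de novo expanded log2 fold changes of Hist1h2bb, Hist2h2bb, Hist1h2bn and Hist1h2bj were 0.94, 0.82, 0.997 and 0.76 (limma adjusted p of 0.00282, 0.0111, 0.00507 and 0.0340). Over the 15 alternatives to the test, Hist1h2bn kept an adjusted p under 0.05 in 13 and Hist2h2bb in 12, but Hist1h2bb in 8 and Hist1h2bj in 4, with highest adjusted p of 0.378, 0.170, 0.240 and 0.297.

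**Figure D3:**
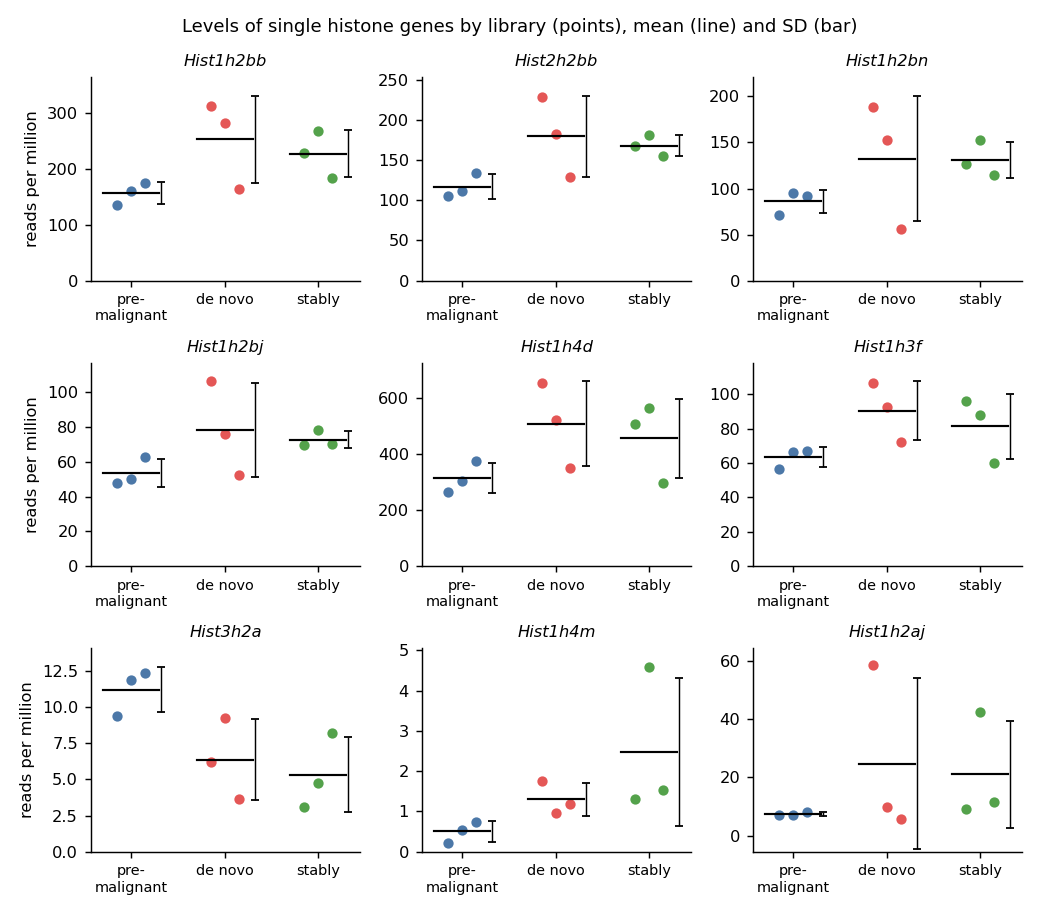
CPM (y axis, linear, own scale per gene) of 9 members in pre-malignant, de novo expanded and stably expanded libraries (points, 3 per group), with the mean (line) and SD (bar). The 4 H2B genes, chosen by this comparison, are higher in all stably expanded than in all pre-malignant libraries, as were 16.1% of all genes tested. Hist3h2a is lower in all leukemic libraries. Of all genes tested, 14.6% were lower without overlap in the stably expanded and 8.5% in the de novo expanded group. Hist1h2aj is high in only 1 library of each leukemic group.

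H3 sums were 694, 872 and 965 CPM in pre-malignant, 1442, 1211 and 757 in de novo expanded and 1107, 1127 and 728 in stably expanded libraries. H3 carries most of the lysine methylation marks of chromatin. All 11 H3 genes tested had a log2 fold change above 0 in de novo expanded libraries, from 0.05 to 0.51, and 9 of 11 in stably expanded libraries. Hist1h3b had the highest level per length, 340 CPM per kb, followed by Hist1h3e with 277 and Hist1h3g with 140. Hist1h3f was at 56.8, 66.7 and 66.8 CPM in pre-malignant, 106, 92.6 and 72.2 in de novo expanded and 96.0, 88.0 and 60.0 in stably expanded libraries. It was higher in every de novo expanded than in every pre-malignant library and had the lowest adjusted p of all members in that comparison (log2 fold change 0.51, SE 0.15, adjusted p = 0.384). Without de novo expanded library 3 it was 0.66 (SE 0.12, limma adjusted p = 0.0176). Hist1h3e was likewise without overlap there, at 166, 209 and 213 CPM in pre-malignant and 323, 274 and 211 in de novo expanded libraries, although only on normalized counts and not in CPM (log2 fold change 0.46, SE 0.17, adjusted p = 0.414). Hist2h3c2 was low and scattered, from 0.578 to 8.87 CPM, with a log2 fold change of -1.40 (SE 0.59, adjusted p = 0.166) in stably expanded libraries.

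H4 sums were 852, 953 and 1114 CPM in pre-malignant, 1876, 1399 and 963 in de novo expanded and 1459, 1488 and 891 in stably expanded libraries. H4 pairs with H3 and is the most conserved core histone, and its many genes encode nearly the same protein. All 13 H4 genes had a log2 fold change above 0 in de novo expanded and 12 of 13 in stably expanded libraries. Hist1h4d had the highest level per length, 375 CPM per kb, followed by Hist1h4h with 320 and Hist1h4f with 258. Hist1h4d was at 266, 305 and 374 CPM in pre-malignant, 652, 523 and 351 in de novo expanded and 508, 566 and 298 in stably expanded libraries. Its log2 fold changes were 0.68 (SE 0.22, adjusted p = 0.399) and 0.50 (SE 0.20, adjusted p = 0.148). Hist1h4h was at 110, 115 and 134 CPM in pre-malignant, 227, 169 and 122 in de novo expanded and 176, 177 and 123 in stably expanded libraries, with log2 fold changes of 0.50 and 0.40. Hist1h4m was higher in all 6 leukemic than in all pre-malignant libraries, but it had only 3, 8 and 11 reads in pre-malignant, 21, 15 and 18 in de novo expanded and 20, 67 and 16 in stably expanded libraries. Its log2 fold changes of 1.34 (SE 0.55) and 2.03 (SE 0.62, adjusted p = 0.0698) rest on these few reads, and 90.1% of its windows are found in other genes.

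The proportions of the types shifted slightly. This was looked at after the values were seen, in all 10 ratios between types, and 4 of them had no overlap between the 6 leukemic and the 3 pre-malignant libraries, each higher in leukemic libraries. The ratio of H2B to H2A was 0.930, 0.859 and 0.877 in pre-malignant, 1.05, 1.04 and 1.102 in de novo expanded and 0.968, 1.00 and 1.17 in stably expanded libraries. The other 3 were H3 to H2A, H4 to H2A and H4 to H1. The ratio of H4 to H2A was 0.737 to 0.809 in pre-malignant and 0.842 to 1.03 in leukemic libraries. Unlike for the sums, library 3 of each leukemic group had the highest H2B to H2A ratio of its group. All of these except H4 to H1 are divided by H2A, so they are not separate observations. Every H2A gene has exon bases opposite another annotated gene, which holds for few genes of the other types. The strand setting of the counting is not known, so the part of this in the ratios was not tested. No test was run on these ratios, and different genes of a type may be affected differently by reads with several matches.

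The members also differed by position. In each library, the log2 level of each member relative to the pre-malignant mean was taken and the median over the 65 members subtracted. This pattern was chosen after the values were seen. In de novo expanded library 3, 4 adjacent members at chr13:21779883-21789213 were low together, Hist1h1b at -1.04, Hist1h3i at -1.06, Hist1h2an at -1.15 and Hist1h2bp at -0.65. The 3 members before them, Hist1h4k, Hist1h2ak and Hist1h2bn, were at -0.40, -0.43 and -0.37, whereas the median of the other 45 Hist1 members tested was 0.07. Thus Hist1h1b was at 138 CPM in this library, against 251 to 413 in pre-malignant and 492 and 624 in the other de novo expanded libraries. The same 4 members were at a median of -0.32 in stably expanded library 1 and -0.41 in library 3, where Hist1h2bp was at 0.19. Their median was 0.01 in stably expanded library 2 and between -0.02 and 0.11 in the remaining libraries. In Hist1h1b, Hist1h3i, Hist1h2an and Hist1h2bp, 1.42%, 76.5%, 86.8% and 48.1% of windows are found in other genes. The 19 members of this block took 11.04% of the histone reads in de novo expanded library 3 and 15.8% to 18.2% in the other libraries.

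**Figure D4:**
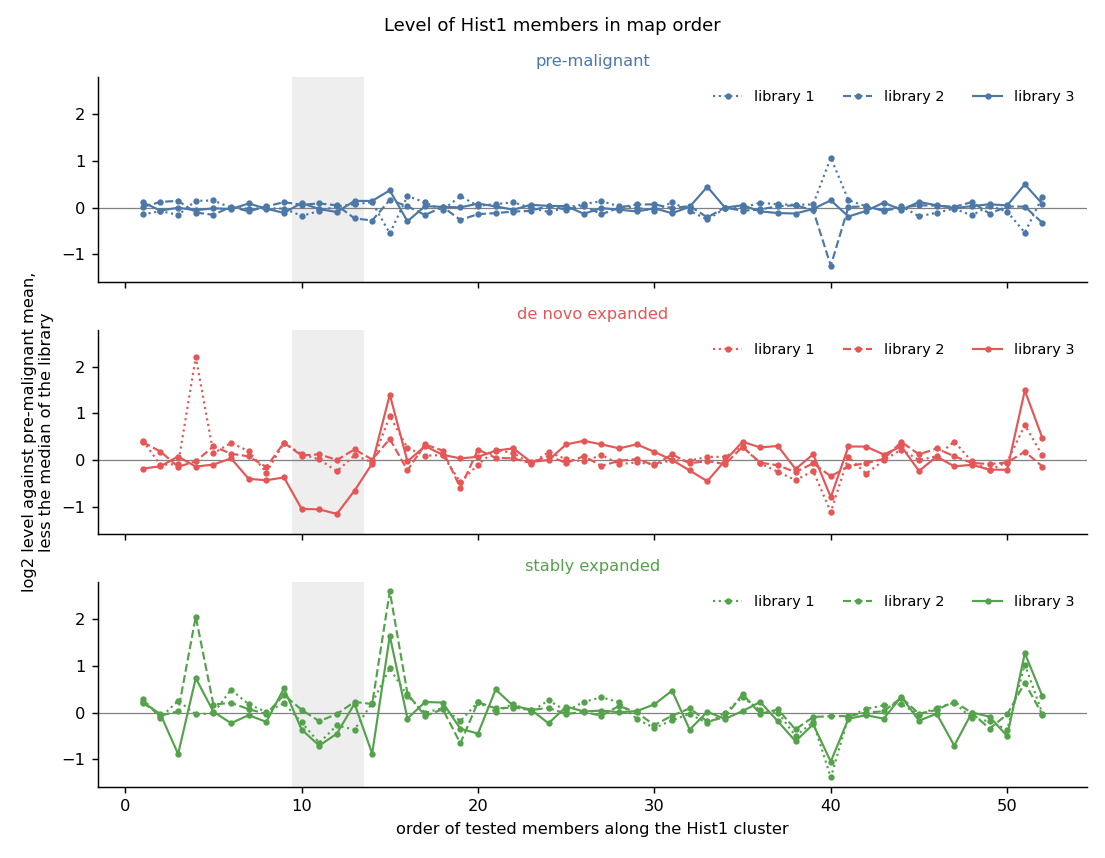
Log2 level of each tested Hist1 member relative to its pre-malignant mean, less the median over members of the same library (y axis), in map order (x axis), for pre-malignant, de novo expanded and stably expanded libraries (panels; line style gives the library). The grey band marks Hist1h1b, Hist1h3i, Hist1h2an and Hist1h2bp, which lie between -1.15 and -0.65 in de novo expanded library 3. The highest points are Hist1h2aj and Hist1h4m, and in de novo expanded library 3 Hist1h2ba is highest at 1.49.

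The promoters of the types differed in part in the motifs they hold. RefSeq promoters on GRCm38.p6, 250 bases before to 50 after the start site, were matched for 62 members among 32851 promoters, and 4 motifs were searched on both strands. The TATA box (TATAAA) and CCAAT box (CCAAT) are general elements, the octamer (ATTTGCAT) is bound by OCT1, and AAACACA is an element of H1 promoters. CCAAT was present in every matched promoter of H1, H2A, H2B and H3, in 3 of 12 of H4 and in 37.4% of all promoters. The octamer was present in 7 of 18 H2A and 6 of 16 H2B promoters, in none of H1, H3 and H4, and in 1.74% of all promoters. Some windows of neighboring H2A and H2B genes overlap and hold the same octamer, as in Hist1h2ae and Hist1h2bg. The H2A and H2B counts are thus not all of separate sites. AAACACA was present in 5 of 6 H1 promoters, 2 of 18 of H2A and 2 of 16 of H2B and in 7.18% of all promoters. TATAAA was present in 40% to 66.7% of the promoters of each type and in 13.6% of all. These matches describe letters and not binding. The promoters of the 4 H2B genes that passed the test, chr13:23746484-23746783, chr3:96269450-96269749, chr13:21753826-21754125 and chr13:22042948-22043247, all on the plus strand, and that of the most abundant H1 gene, chr13:23738557-23738856 on the plus strand, are shown with these motifs in capitals.
Hist1h2bb: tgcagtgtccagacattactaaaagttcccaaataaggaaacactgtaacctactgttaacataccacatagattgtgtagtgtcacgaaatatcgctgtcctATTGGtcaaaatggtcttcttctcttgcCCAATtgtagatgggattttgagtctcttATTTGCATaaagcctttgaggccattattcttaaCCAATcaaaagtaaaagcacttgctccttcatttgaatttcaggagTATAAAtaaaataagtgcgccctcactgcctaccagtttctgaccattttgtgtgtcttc
Hist2h2bb: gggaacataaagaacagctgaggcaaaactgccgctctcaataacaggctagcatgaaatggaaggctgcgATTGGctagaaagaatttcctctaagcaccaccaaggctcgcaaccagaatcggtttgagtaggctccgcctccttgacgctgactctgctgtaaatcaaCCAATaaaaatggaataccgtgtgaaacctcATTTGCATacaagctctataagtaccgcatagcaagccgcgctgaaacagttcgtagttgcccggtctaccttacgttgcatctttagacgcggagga
Hist1h2bn: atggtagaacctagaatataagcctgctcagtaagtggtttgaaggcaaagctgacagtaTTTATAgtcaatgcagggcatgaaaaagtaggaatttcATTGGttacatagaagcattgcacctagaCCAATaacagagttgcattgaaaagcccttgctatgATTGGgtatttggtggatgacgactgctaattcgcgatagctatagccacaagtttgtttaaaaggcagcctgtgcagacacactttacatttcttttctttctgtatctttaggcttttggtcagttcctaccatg
Hist1h2bj: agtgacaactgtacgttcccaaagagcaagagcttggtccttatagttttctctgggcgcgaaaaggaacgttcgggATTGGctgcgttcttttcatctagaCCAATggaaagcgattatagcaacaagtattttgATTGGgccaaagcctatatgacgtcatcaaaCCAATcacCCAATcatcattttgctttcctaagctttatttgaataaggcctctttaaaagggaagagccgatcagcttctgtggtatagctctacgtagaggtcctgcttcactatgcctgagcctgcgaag
Hist1h1c: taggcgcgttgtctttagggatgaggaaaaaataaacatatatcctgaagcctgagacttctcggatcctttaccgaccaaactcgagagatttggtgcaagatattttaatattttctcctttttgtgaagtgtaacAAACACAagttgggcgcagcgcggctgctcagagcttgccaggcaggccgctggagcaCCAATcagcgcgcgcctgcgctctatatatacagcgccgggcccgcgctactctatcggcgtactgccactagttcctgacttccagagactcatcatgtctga
The octamer lay 90 bases before the start site in Hist1h2bb and 48 in Hist2h2bb. The letters of the octamer were in neither the window of Hist1h2bn nor that of Hist1h2bj, so the 4 genes shared CCAAT but not the octamer. In Hist1h1c, AAACACA lay 112 bases before the start site.

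Factors that make and remove histone mRNA differed less than the histone genes themselves. Of 27 genes for histone mRNA processing and decay, none was called. Summed, they were at 2602 to 2751 CPM in pre-malignant, 2808 to 2910 in de novo expanded and 2820 to 2928 in stably expanded libraries, which did not overlap with the pre-malignant group. Their median log2 fold changes were 0.10 and 0.12. Slbp, the stem-loop binding protein, was at 97.1, 99.5 and 104 CPM in pre-malignant, 111, 114 and 115 in de novo expanded and 120, 109 and 131 in stably expanded libraries, with log2 fold changes of 0.19 (SE 0.09, limma adjusted p = 0.461) and 0.26 (SE 0.10, adjusted p = 0.152). Lsm11 of the U7 snRNP had log2 fold changes of 0.35 and 0.06, its partner Lsm10 of 0.01 and -0.22, and Eri1, the exonuclease that trims the stem-loop, of 0.07 and 0.10. Casp8ap2 (FLASH), which works at the 3′ end and in the locus body, had 0.08 and 0.22.

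Among 14 genes of histone locus transcription, Npat had log2 fold changes of 0.13 and 0.10, at 45.6 to 54.6 CPM in pre-malignant and 49.9 to 54.8 in leukemic libraries. Ccne2, a cyclin E, was the only gene of this list with an adjusted p under 0.05, at 30.1, 26.4 and 27.5 CPM in pre-malignant, 38.9, 40.9 and 32.2 in de novo expanded and 46.5, 39.2 and 46.2 in stably expanded libraries. Its log2 fold changes were 0.43 (SE 0.14, limma adjusted p = 0.399) and 0.65 (SE 0.14, adjusted p = 0.0187). In the second comparison 4.34% of all genes passed upwards. E2f2 had log2 fold changes of 0.53 and 0.46, and neither passed.

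Histone chaperones and assembly factors carry the new proteins to DNA. Of 26 such genes, 5 had an adjusted p under 0.05 in stably expanded against pre-malignant libraries, all higher (4.34% of all genes in that direction). None was 2-fold. Among those with the lowest p, Anp32e, a chaperone of H2A.Z, had a log2 fold change of 0.49 (SE 0.09, limma adjusted p = 0.0116), Hat1, which acetylates newly made H4, of 0.58 (SE 0.12, adjusted p = 0.0206), and Rbbp4 and Rbbp7, H4-binding subunits of CAF-1 and HAT1, of 0.41 (SE 0.09) and 0.41 (SE 0.10). In de novo expanded libraries none passed, and 3 did without library 3, where 2.23% of all genes passed upwards.

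Most replication-independent histone genes make polyadenylated mRNA throughout the cell cycle. Their sum was 1898, 2049 and 2233 CPM in pre-malignant, 2299, 2338 and 1720 in de novo expanded and 1811, 2129 and 1901 in stably expanded libraries. As for the replication-dependent genes, de novo expanded libraries 1 and 2 were above every pre-malignant library and library 3 was not, whereas no stably expanded library was above the pre-malignant range. In stably expanded against pre-malignant libraries, H1f0, the H1 of resting and differentiated cells, was higher by 0.87 on the log2 scale (SE 0.22, limma adjusted p = 0.0397), at 44.4, 44.1 and 55.9 against 66.6, 136 and 72.4 CPM. H2afz was higher by 0.42 (SE 0.10, adjusted p = 0.0347), at 114, 112 and 129 against 173, 153 and 147 CPM. H2afy, a large part of the sum, went the other way, with a log2 fold change of -0.37 (SE 0.11, adjusted p = 0.0578). It was at 836, 926 and 1001 CPM in pre-malignant and 624, 809 and 704 in stably expanded libraries. In de novo expanded libraries H2afy was at 1033, 1031 and 617 CPM, so the order of the sums rests in part on this gene. H3f3a and H3f3b, which encode H3.3, had log2 fold changes of 0.16 and -0.17 there, and H2afx, the H2A of the DNA damage response, of 0.25.

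S phase and cycling genes showed the order of libraries seen for the histone genes. The 30 genes summed to 5410, 6109 and 6560 CPM in pre-malignant, 7583, 7407 and 6011 in de novo expanded and 7327, 7374 and 6164 in stably expanded libraries, so library 3 of each leukemic group again fell within the pre-malignant range. The log2 fold change was above 0 in 27 of 30 in both comparisons with pre-malignant libraries, with medians of 0.25 and 0.23, and none was called. Without de novo expanded library 3 the first median was 0.32, with 29 of 30 above 0. Mki67, a marker of cycling cells, was at 1281, 1551 and 1603 CPM in pre-malignant, 1968, 1872 and 1315 in de novo expanded and 1794, 1865 and 1343 in stably expanded libraries. Rrm2, a subunit of ribonucleotide reductase, had log2 fold changes of 0.37 and 0.52 (SE 0.13, limma adjusted p = 0.0402), whereas Pcna, the replication clamp, had 0.01 and 0.05. The part of the cell cycle in the histone values was not tested.

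Since histone mRNAs have no poly(A) tail, other RNAs without one were set beside them. The sum of 15 such RNAs went the other way, at 9274, 6497 and 7051 CPM in pre-malignant, 6066, 5296 and 5915 in de novo expanded and 5440, 4393 and 5345 in stably expanded libraries. Most of this sum came from Rn7sk and Rpph1, at 5723, 3602 and 3921 and at 2184, 2084 and 2259 CPM in pre-malignant libraries. Rpph1 had log2 fold changes of -0.47 and -0.42 (limma adjusted p of 0.360 and 0.0712). Of 11 tested, 8 were lower in de novo expanded and all 11 in stably expanded libraries, with medians of -0.40 and -0.56. Rn7sk, the RNA that holds P-TEFb inactive, had a log2 fold change of -0.68 (SE 0.17, limma adjusted p = 0.0360) in stably expanded libraries, and Rnu11 and Scarna2 had -0.995 and -0.56. Without de novo expanded library 3, 7 of 11 were lower there and the median was -0.43.

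**Figure D5:**
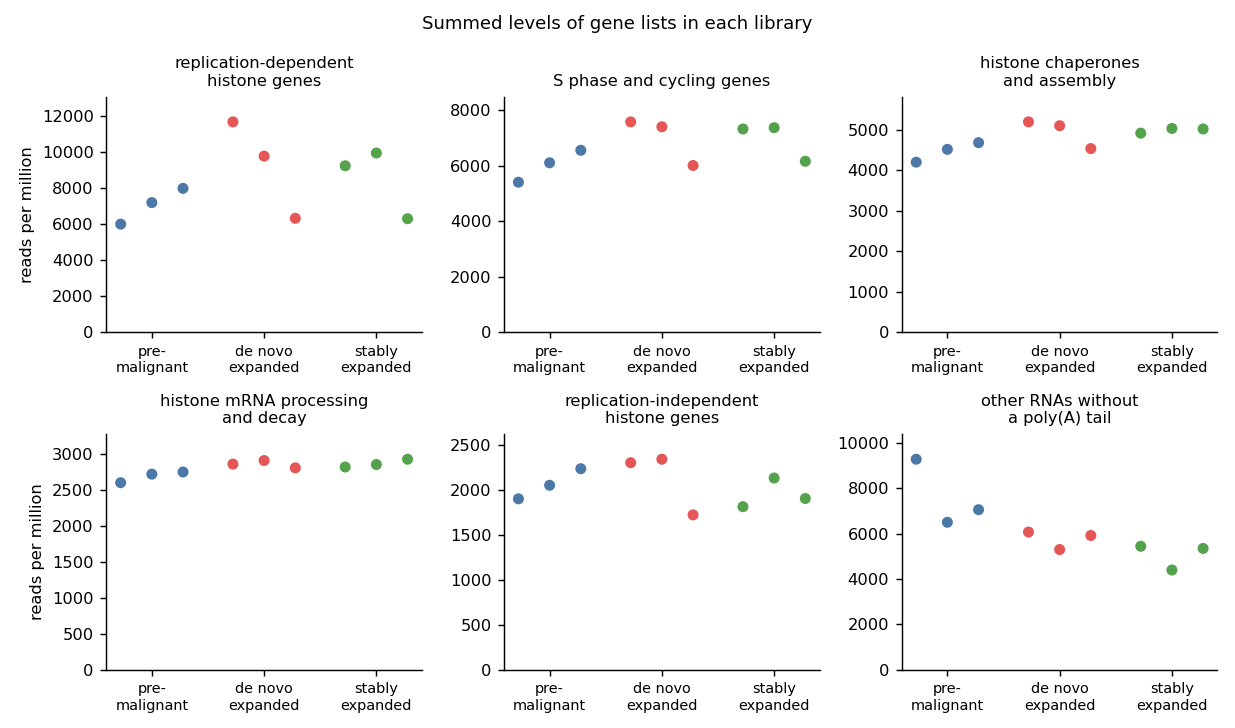
CPM (y axis, linear from 0, own scale per panel) summed over the replication-dependent histone genes and 5 other lists in each library (points, 3 per group). Histone genes (6009 to 11683) and S phase genes (5410 to 7583) share the low value of library 3 in both leukemic groups, whereas other RNAs without a poly(A) tail are higher in pre-malignant libraries.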

How the data were processed

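RNA was extracted from sorted splenocytes with the RNeasy Micro Kit, and libraries were prepared from total RNA with a stranded SMARTer Pico Input kit (Takara Bio) and read at 38 bases. Per the labels and the paper, the authors trimmed reads with Trim Galore 0.6.4, aligned them with STAR 2.6.1d to GRCm38.p6 (GENCODE release M25) and counted them with featureCounts 1.6.4. The strand setting and the counting of reads with several matches are not given in the sources used here. The authors deposited 3 tables, 1 per pair of groups, in which read counts were divided by DESeq2 size factors over 6 libraries (a signal called normalized count here). The log2 fold changes, p-values, adjusted p-values and test scores that the authors deposited beside them were not used. Whole reads, to within 0.05 reads, were recovered for at least 99.99% of values and gave CPM. Column names gave the group of each library only.

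Tests used limma 3.58.1 (eBayes with trend, two-sided) on log2(normalized count + 1) per table in R 4.3.3, and p was adjusted after Benjamini-Hochberg over every gene tested, those whose normalized count averaged 10 or more. Alternatives were edgeR 4.0.16 (TMM), DESeq2 1.42.0, both on the recovered counts, CPM scaling, quantile normalization, pseudocounts of 0.1 and 5, no filter or a mean of at least 50, 1 fit of all 9 libraries and leaving out each library. Scripts were tested on simulated data. With 3 libraries per group an exact permutation test cannot go below p = 0.1. Depth of 10379739 to 15551196 reads makes 3 reads, the limit that a count of 0 allows, 0.193 to 0.289 CPM, which covers counting error only. Members and gene lists were chosen with earlier results of these data known. Members named are, in each type, the 3 with the most reads per kb and the 3 with the lowest p in any comparison, those called, and those without overlap in the same direction in both comparisons with pre-malignant libraries. Others were named after their values were seen. Of the lists, counts, the genes called, up to 4 genes with the lowest p and a fixed set (such as Slbp, Npat and Pcna) are named. Summaries were computed with Python 3.11.15, numpy 2.4.6 and pandas 2.3.3, and plots with matplotlib 3.10.9. Stem-loops come from GENCODE vM1 transcripts and promoters from RefSeq on GRCm38.p6. A feature of the genotype that all clones share is not reported here.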

Additional observations from a re-analysis of the deposited data

How the results depend on the processing

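No paired analysis was possible because the columns of the tables carry a group but no clone, mouse or replicate number. The median log2 fold change of histone genes against pre-malignant libraries kept its direction under every alternative. The log2 difference of the summed reads was recomputed only with edgeR TMM, in CPM and with single libraries left out, and kept its direction in these. Leaving out single libraries moved the median between 0.17 and 0.64 in de novo expanded and between 0.14 and 0.44 in stably expanded libraries, and the summed difference between 0.19 and 0.61 and between 0.14 and 0.44. Between the leukemic groups the median ranged from -0.39 to 0.10 and the summed difference from -0.34 to 0.09.

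The number of histone genes called was 0 in each comparison and 0 to 1 when single libraries were left out. The 1 gene called was Hist1h2bl in de novo expanded against pre-malignant libraries without de novo expanded library 3, Hist3h2a in stably expanded against pre-malignant libraries without stably expanded library 3, and Hist2h3c2 between the leukemic groups without de novo expanded library 3. In stably expanded against pre-malignant libraries it was 2 with DESeq2 (Hist3h2a and Hist1h4m) and 2 without a filter on low values (Hist3h2a and Hist1h2aj). The number of all genes called was 0 in de novo expanded against pre-malignant libraries, 62 with DESeq2, 5 without a filter, 5 in 1 fit of all 9 libraries and 0 to 214 when single libraries were left out, with 214 without de novo expanded library 3. In stably expanded against pre-malignant libraries it was 384, 531 with DESeq2 and 525 without a filter. There it was 6 in the fit of all 9 libraries and 206 to 452 when single libraries were left out. Between leukemic groups it was 1, 32 with DESeq2, 2 without a filter, 2 in the fit of all 9 libraries and 0 to 508 when single libraries were left out, with 508 without de novo expanded library 3. Members with an adjusted p under 0.05 in stably expanded libraries numbered 4, 8 with DESeq2, 2 with quantile normalization and 0 in the fit of all 9 libraries. The cause of these shifts was not tested. Leaving out a library also lowers the number of libraries fitted. With 3 libraries per group and 1 pre-malignant mouse, differences of the size seen here were not separable from the spread between libraries for most members in these unpaired tests.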

Other observations

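Of the 3 Hist3 genes, Hist3h2ba was at 0.914 to 4.92 CPM and the pseudogene Hist3h2bb-ps at 1.18 to 4.34 CPM over the 9 libraries, and neither followed Hist3h2a. Hist2h2be, an H2B gene, had log2 fold changes of -0.46 and -0.48 in de novo and stably expanded against pre-malignant libraries, the only H2B gene below 0 in both. Hist1h2ba, an H2B gene of the testis, was at 0.228, 0.479 and 0.811 CPM in pre-malignant and at 0.772 to 1.502 CPM in leukemic libraries, with reads too few to set its level firmly. Outside the clusters, Hist1h2al was at 3.87 to 8.18 CPM. The 10 members with the most reads held 57.5% of all histone reads, and 5 of these were H1 genes. This ranking also depends on how reads with several matches were counted.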
